A study of Mus musculus with 3 samples.

Results

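Regions of open chromatin far from any gene start were followed in Hic1-lineage mesenchymal progenitors (MPs) of the embryonic mouse forelimb, from embryos at embryonic days 12.5, 14.5 and 16.5 (E12.5 and so on). Members were selected on peak calls: autosomal regions with exactly 1 peak in each of the 3 libraries, every pair of peaks overlapping reciprocally by 50% or more, and lying over 50 kb from any transcription start site of a protein-coding gene (GENCODE basic annotation, GRCm38/mm10). Of 266531 regions in the merged peak lists, 82930 were autosomal with a peak of every library, 73951 of these had exactly 1 peak in each, 43779 met the overlap rule at any distance (the matched regions) and 15205 met all criteria. These 15205 are the remote regions. For comparison, 11144 matched regions lay within 1 kb of a start site and 17430 lay from 1 to 50 kb away.

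Single-nucleus ATAC-seq, in which a transposase cuts accessible DNA in isolated nuclei, had been run on tdTomato+ cells sorted from Hic1CreERT2/CreERT2;Rosa26LSLtdTomato/tdTomato embryos on the C57BL/6J strain. Each dam had been given 7.5 mg of tamoxifen by gavage at E10, so that cells then expressing Hic1, and their descendants, kept the tdTomato label. There was 1 library per stage and no unlabelled or untreated control, so differences between stages have no replicate check and no test. Every interval below is at 95%. Those of levels and ratios cover counting error only, and those of motif shares are over numbers of regions. Cells from male and female embryos were used together, and limbs had been pooled before sorting at E12.5.

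All groups carried the CreERT2 insertion at both Hic1 alleles, and all were labelled by a single early pulse, so the stages differ in age and also in what the labelled cells had become. The E16.5 library came from an elbow-joint segment of the forelimb rather than the whole limb, and the E12.5 limbs had been digested with Dispase where the later ones were digested with Collagenase A, Pronase and DNase. Digestion cannot be told apart from stage where E12.5 is compared with a later library, nor tissue segment where E16.5 is compared with an earlier one. Cells positive for blood, endothelial and related surface markers had been removed by sorting. Promoter peaks of 8 of 8 mesenchymal markers (among them Prrx1, Pdgfra, Twist1, Tbx5 and Hic1) were present in every library, with summed levels of 509 to 643 per 1000000 cut sites in all called peaks, and those of 4 blood markers summed to at most 0.655. Promoters of 4 endothelial, 4 muscle, 4 epithelial and 4 Schwann-cell markers summed to 36.2 to 64, 7.76 to 26.6, 16.2 to 27.5 and 68.2 to 87.7 on the same scale, and their part in the values below was not tested. The libraries held 8294, 20023 and 14048 nuclei and 87048167, 204289151 and 413425059 counts in age order, with 151 to 401 cell barcodes shared between pairs of libraries and 6 shared by all. The median remote region was covered by 227, 623 and 921 fragment equivalents (cut sites divided by 2) in the same order.

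Open regions far from gene starts include many candidate enhancers, short stretches of DNA where transcription factors bind and act on a promoter that may lie far along the chromosome. In limb mesenchyme, several patterning genes are known to be controlled by enhancers spread through the gene-poor DNA around them. Another class of distal open site is bound by CTCF, a zinc-finger protein that anchors chromatin loops and is bound at largely the same sites in many cell types. A nearest gene is only a position here, and none of the values below says which promoter a region acts on.

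The sequences of 9 remote regions are shown from GRCm38/mm10, as the 300 bases around the centre of each region on the plus strand. Capitals mark matches on either strand to 16 short motifs, 15 of them spelled out with the motif results and that of CTCF, which needs more than the 4 base letters, given by name, and a match is a description of letters, not a binding site. The first pair comes from the largest rises between E12.5 and E16.5. The window near Ccdc171 (chr4:83984501-83984800) held 1 E-box and that near Tars (chr15:11513932-11514231) held a MEIS motif at 2 positions.
Ccdc171 region: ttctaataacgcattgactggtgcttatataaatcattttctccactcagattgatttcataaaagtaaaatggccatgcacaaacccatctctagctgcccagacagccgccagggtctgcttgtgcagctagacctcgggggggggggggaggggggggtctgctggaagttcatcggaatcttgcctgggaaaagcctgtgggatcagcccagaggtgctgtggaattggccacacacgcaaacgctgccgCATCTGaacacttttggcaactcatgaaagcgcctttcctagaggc
Tars region: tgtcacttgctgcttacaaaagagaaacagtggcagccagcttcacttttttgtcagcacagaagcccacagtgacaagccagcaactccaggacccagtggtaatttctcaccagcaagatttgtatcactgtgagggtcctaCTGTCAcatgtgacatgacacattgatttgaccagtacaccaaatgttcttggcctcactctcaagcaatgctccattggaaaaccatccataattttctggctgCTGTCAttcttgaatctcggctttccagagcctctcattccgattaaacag
The next regions come from the largest falls. The window near Pax9 (chr12:56918136-56918435) held the TEAD motif at positions 118 and 127, counted from the first base shown, and that near Cacna2d1 (chr5:15850264-15850563) held E-box, NFI half-site, RUNX, homeodomain and SOX motifs.
Pax9 region: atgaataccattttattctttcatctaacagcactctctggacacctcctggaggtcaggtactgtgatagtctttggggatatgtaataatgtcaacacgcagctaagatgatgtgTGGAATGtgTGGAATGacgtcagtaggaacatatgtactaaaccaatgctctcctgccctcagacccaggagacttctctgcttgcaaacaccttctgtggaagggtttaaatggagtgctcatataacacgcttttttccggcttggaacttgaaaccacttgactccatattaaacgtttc
Cacna2d1 region: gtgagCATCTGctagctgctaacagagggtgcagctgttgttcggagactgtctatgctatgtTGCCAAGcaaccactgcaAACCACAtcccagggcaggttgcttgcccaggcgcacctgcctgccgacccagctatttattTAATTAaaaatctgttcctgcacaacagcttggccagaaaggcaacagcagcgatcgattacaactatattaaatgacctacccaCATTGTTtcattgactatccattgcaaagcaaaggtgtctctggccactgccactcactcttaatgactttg
The next pair comes from the 3 regions closest to constant among the most accessible 10% of remote regions. The window near Mex3b (chr7:82923695-82923994) held a SOX motif and an NFI half-site, and that near Meox2 (chr12:36932976-36933275) held MEIS, AP-1 and TEAD motifs.
Mex3b region: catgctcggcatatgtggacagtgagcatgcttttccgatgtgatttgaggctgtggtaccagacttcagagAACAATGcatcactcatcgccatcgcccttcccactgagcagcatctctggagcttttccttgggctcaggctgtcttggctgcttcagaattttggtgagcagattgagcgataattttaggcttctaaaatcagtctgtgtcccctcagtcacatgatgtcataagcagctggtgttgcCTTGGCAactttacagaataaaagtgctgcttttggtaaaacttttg
Meox2 region: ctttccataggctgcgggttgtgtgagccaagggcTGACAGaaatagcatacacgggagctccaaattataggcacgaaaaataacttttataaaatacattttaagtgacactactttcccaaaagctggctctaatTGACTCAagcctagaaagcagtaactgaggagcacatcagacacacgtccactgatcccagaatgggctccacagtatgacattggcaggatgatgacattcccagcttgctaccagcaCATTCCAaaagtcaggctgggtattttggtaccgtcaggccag
The last 3, like the window near Cacna2d1, were chosen after their values were seen. They were picked because the motif results below turn on the NFI half-site and the CTCF motif. The window near Cttnbp2 (chr6:18440867-18441166) was that of the largest rise among remote regions with an NFI half-site and a mean level at or above the median, which stands at its 3' end, and those near Oxgr1 (chr14:120137887-120138186) and Bcas1 (chr2:170319354-170319653) had the highest levels among remote regions with a CTCF motif.
Cttnbp2 region: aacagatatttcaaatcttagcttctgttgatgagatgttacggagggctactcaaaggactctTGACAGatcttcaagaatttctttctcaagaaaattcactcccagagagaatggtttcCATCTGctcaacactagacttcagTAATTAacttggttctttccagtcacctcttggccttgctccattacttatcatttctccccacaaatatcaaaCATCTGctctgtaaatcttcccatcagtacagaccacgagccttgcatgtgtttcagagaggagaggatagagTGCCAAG
Oxgr1 region: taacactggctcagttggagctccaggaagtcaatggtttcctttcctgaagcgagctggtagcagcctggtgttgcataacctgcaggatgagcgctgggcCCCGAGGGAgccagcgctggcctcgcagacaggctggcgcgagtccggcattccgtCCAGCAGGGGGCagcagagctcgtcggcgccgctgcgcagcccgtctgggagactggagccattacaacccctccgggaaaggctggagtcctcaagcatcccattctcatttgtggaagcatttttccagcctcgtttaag
Bcas1 region: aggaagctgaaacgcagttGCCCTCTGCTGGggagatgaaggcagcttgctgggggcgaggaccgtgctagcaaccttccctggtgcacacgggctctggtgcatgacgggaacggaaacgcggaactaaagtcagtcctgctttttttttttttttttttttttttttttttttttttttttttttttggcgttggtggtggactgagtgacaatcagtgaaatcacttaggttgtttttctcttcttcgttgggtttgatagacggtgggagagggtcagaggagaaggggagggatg

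Remote regions lay a median of 126 kb from the nearest protein-coding start site (quartiles 77.6 and 228 kb, largest 2253 kb). Beyond 100 kb lay 9341 of them (61.4%), and 945 (6.22%) were over 500 kb away. Most were intergenic (9639, 63.4%), 4940 (32.5%) lay in introns of a protein-coding gene and 626 (4.12%) touched an exon. When start sites of all gene types were counted, 5918 (38.9%) were still over 50 kb from one, and 782 (5.14%) overlapped or lay within 1 kb of the start of a noncoding gene. Their centres had a median GC content of 46%, below the 49.3% of matched regions at 1 to 50 kb and the 65.3% of matched promoters. Repeats took up little of them, with a median of 12% soft-masked bases and only 65 regions above 50%.

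Accessibility is given as CPM, the cut sites in a region's peak per 1000000 cut sites in autosomal regions with a peak of every library. The median remote region stood at 6.00 CPM in the E12.5 library (quartiles 3.32 and 11.2), at 5.85 in the E14.5 library (quartiles 3.37 and 10.5) and at 5.36 in the E16.5 library (quartiles 2.97 and 10.1). Remote regions together took 13.8%, 13% and 12.3% of the shared-region counts in age order, so their share was lower at each later stage, by 1.52 percentage points in all. The first step turned under other settings, from 11.7% to 12.5% of counts in all called peaks, from 56.1% to 56.6% of those in matched regions beyond 10 kb and from 3.68% to 3.83% for regions with 80% overlap. Matched regions at 1 to 50 kb took 16%, 14.8% and 15.1% in age order, and all matched regions 66%, 71.4% and 62.4%. Both were thus also lower at E16.5 than at E12.5. The share of the matched promoters was 36.2%, 43.5% and 35% in the same libraries. The E14.5 library was thus richer in promoter cuts than the others, and a ratio that involves it sets remote regions against that larger promoter share. With every nucleus thinned to 1000 fragment equivalents in peaks, the median remote region was open in 0.519% of 6694, 0.593% of 20023 and 0.425% of 13991 nuclei in age order. Without thinning these shares were 2.4%, 2.91% and 5.74%, following the depth of the libraries. Thinning left out 1600, 0 and 57 shallower nuclei.

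Between E12.5 and E16.5, 1969 remote regions (12.9%) were at least 2-fold higher at the later stage and 2957 (19.4%) at least 2-fold lower, where all 43779 matched regions gave 8.57% higher and 12.3% lower. The excess of falls depended on scaling: there were 2397 higher and 2451 lower when libraries were scaled on regions over 10 kb from a start site, and 2249 and 2591 with the median of ratios. From E12.5 to E14.5, 1836 (12.1%) were at least 2-fold higher and 1303 (8.57%) at least 2-fold lower, against 7.25% and 6.04% of all matched regions. From E14.5 to E16.5, 501 (3.29%) were at least 2-fold higher and 1828 (12%) at least 2-fold lower, against 2.8% and 6.92%. The median log2 ratio of remote regions was -0.08 for E14.5 over E12.5, -0.11 for E16.5 over E14.5 and -0.17 for E16.5 over E12.5, and that of all matched regions was 0.02, -0.14 and -0.08. The standard deviation over single remote regions was 1.01 for E16.5 over E12.5. The direction of the first 2 medians also depended on the scaling of the libraries: E14.5 over E12.5 became 0.09 when CPM was taken over all called peaks, with 2418 regions higher and 750 lower. For E16.5 over E14.5 the median became 0.03 when libraries were scaled by the median of ratios, with 802 higher and 1383 lower, and with CPM over all called peaks the calls were 180 higher and 2870 lower. Without regions under 100 fragment equivalents in any library, the balance for E14.5 over E12.5 turned to 914 higher and 1303 lower, and the rises from E12.5 to E16.5 went from 1969 to 1182 beside 2842 falls.

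The farther a region lay from a gene start, the more its accessibility differed between E12.5 and E16.5. Of matched regions within 1 kb of a start site, 3.95% differed by at least 2-fold in either direction, as did 21.7% of those at 1 to 50 kb. Among remote regions the share was 29% at 50 to 100 kb (n = 5864), 33.1% at 100 to 250 kb (n = 5960), 36.4% at 250 to 500 kb (n = 2436) and 38.9% beyond 500 kb (n = 945). The standard deviation of the log2 ratio followed the same order, 0.43 within 1 kb and 0.96, 1.02, 1.07 and 1.11 over the 4 remote bins. Regions that were lower at E16.5 made up more of the increase over the remote bins, from 17.2% to 25.7%, while those that were higher went from 11.8% to 14.6% at 250 to 500 kb and 13.2% beyond. Levels differed too, with a median of 32.2 CPM within 1 kb, 5.94 at 1 to 50 kb and 6.04 in remote regions. At or above the remote median level, 33.3% of remote regions differed by at least 2-fold, against 22.1% at 1 to 50 kb. Below that level the shares were 31.5% and 21.4%. The order of the bins was kept under each of the other scalings and ways of counting that were run, but among regions with peaks overlapping by 80% or more the remote bins ran from 14.5% to 16.5% with no steady order.

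**Figure D1:**
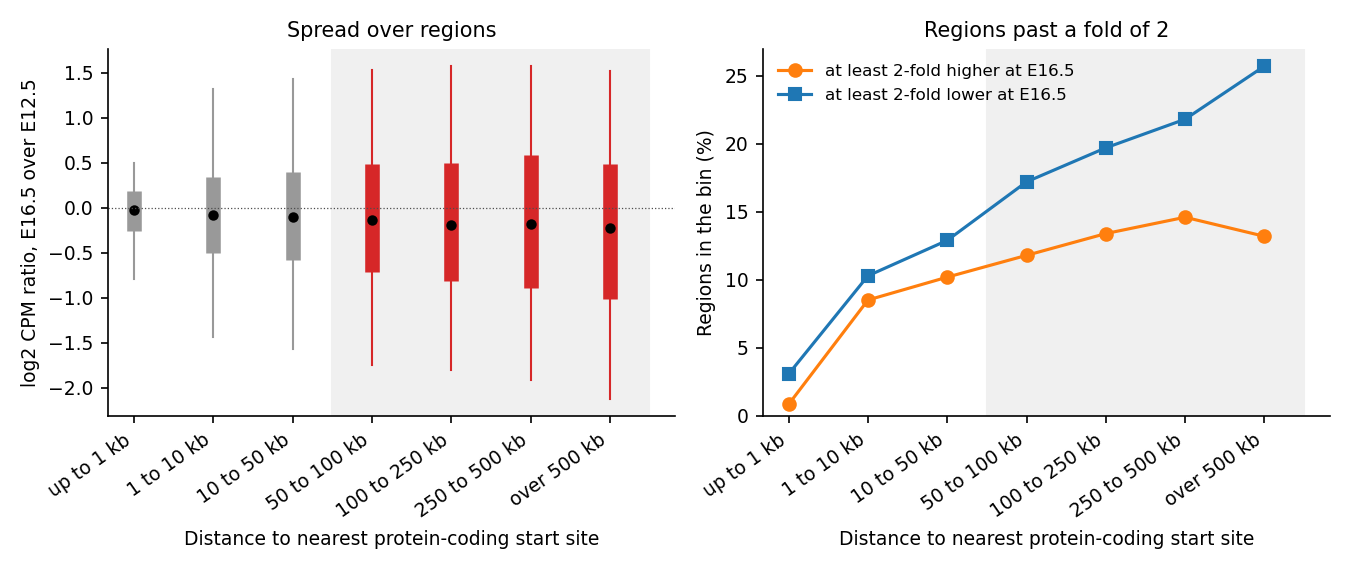
Left, log2 CPM ratio of E16.5 over E12.5 for matched autosomal regions in bins of distance to the nearest protein-coding start site, with the median (black point), the quartiles (thick bar) and the 5th to 95th percentiles (thin line) over regions; remote bins are red on grey shading. Right, percent of regions in each bin at least 2-fold higher (orange circles) or lower (blue squares) at E16.5, with lower regions reaching 25.7% beyond 500 kb.

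Regions that failed the overlap rule differed more, which the rule itself favours, since each library's counts were taken over its own peak. Distance bins that take in these regions share this limit. Besides the 15205 remote regions, 14223 autosomal regions over 50 kb from a start site also had exactly 1 peak per library but failed the overlap rule, and of these 33.6% were at least 2-fold higher and 28.4% at least 2-fold lower at E16.5. With both kinds together, 22.9% of 29428 regions were higher and 23.8% lower. The share of regions differing by at least 2-fold then ran from 42.8% at 50 to 100 kb to 53.9% beyond 500 kb, against 35.6% at 1 to 50 kb. At the edges of the rule, the remote region nearest the distance limit lay 50004 bp from Ttn, with 2.73, 2.31 and 2.55 CPM in age order, and the matched region just outside lay 49999 bp from Kdm8, with 41.6, 41.5 and 34.4 CPM. At the overlap limit of 50% the last region inside lay near Cntn4, with 1.13, 0.887 and 0.659 CPM, and the first outside lay near Alppl2, with 5.76, 7.88 and 16.4 CPM.

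Remote regions were found in each of the 4 possible courses. By the sign of the 2 steps, 2868 (18.9%) were higher at each later stage, 4501 (29.6%) lower at each later stage, 4076 (26.8%) higher and then lower, and 3760 (24.7%) lower and then higher. In the same order these courses held 15%, 23.2%, 36.5% and 25.3% of all matched regions. At 1 to 50 kb they held 17.2%, 23.3%, 20.5% and 39% of matched regions. These signs take in steps within counting error. The courses, and the larger steps and E14.5 levels that follow, depend on the scaling of the E14.5 library, which turned the median of either step. They were not computed under another scaling. On the log2 scale, among the 1969 regions at least 2-fold higher at E16.5, 73.9% made the larger part of their rise by E14.5, whereas 47.9% of the 2957 lower regions made the larger part of their fall by E14.5. Over all matched regions these shares were close, 69.4% and 49.6%. A level at E14.5 at least 2-fold above both other stages was found in 349 remote regions (2.3%) and one at least 2-fold below both in 59 (0.388%), against 1.28% and 0.356% of all matched regions, and no region with a peak missing from a library could enter these counts. By contrast, 1452 remote regions (9.55%) differed by less than 25% (higher over lower) in all 3 comparisons, against 23.1% of matched promoters and 13% of matched regions at 1 to 50 kb.

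Peaks of remote regions were a median of 914, 739 and 966 bp wide in age order, narrower than promoter peaks, which measured 1862, 1613 and 2050 bp. They were slightly wider than matched peaks at 1 to 50 kb, at 854, 674 and 932 bp. Width and counts moved together, with a Spearman correlation over the 15205 regions of 0.835 between the log2 ratio of width and the log2 ratio of CPM for E16.5 over E12.5. This correlation was 0.774 for matched regions at 1 to 50 kb and 0.754 for all matched regions. Each library's counts were taken over its own peak, so these quantities share the peak boundaries, and the overlap rule bounded the width ratio at 2-fold. Regions at least 2-fold higher at E16.5 had widened from a median of 753 bp to 1162 bp, and those at least 2-fold lower had narrowed from 1039 bp to 768 bp. When counts were divided by called width, 745 remote regions were at least 2-fold higher and 1970 at least 2-fold lower, so the split of higher to lower calls moved from 40% higher to 27.4% higher. The split moved the same way over all 43779 matched regions, from 3750 higher and 5405 lower (41% higher) to 1413 and 3724. Of the 1969 and 2957 remote regions called without this division, 720 and 1846 stayed so. Of 4 classes of remote regions by width at E14.5, the narrowest (152 to 505 bp) had fewest rises, 7% compared with 13.4% to 16.2% in the other classes.

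**Figure D2:**
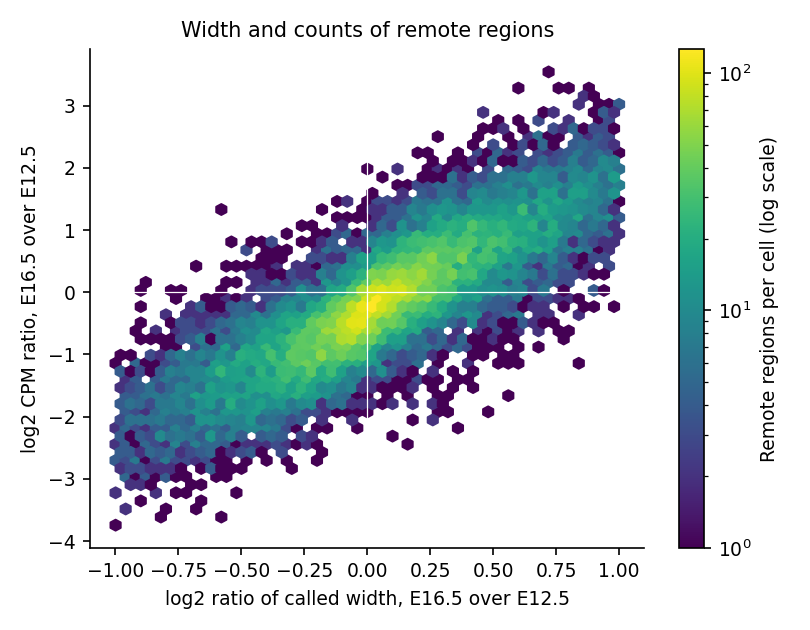
Each hexagon counts remote regions by their log2 ratio of called peak width (horizontal) and log2 CPM ratio (vertical), both E16.5 over E12.5, with colour on a log scale for the number of regions. The cloud runs from narrower and lower to wider and higher, with a Spearman correlation of 0.835, and the overlap rule ends it at a width ratio of 2-fold.

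Rises and falls of more than 9-fold in CPM were seen at single remote regions. The 5 largest rises and falls were taken among regions whose mean level over the 3 libraries was at or above the median, which a region can reach through the stage where it is high. The rises thus rested on only 70 to 133 fragment equivalents at E12.5 and the falls on 272 to 572 at E16.5. Their differences were smaller once counts were divided by called width. The log2 ratios for E16.5 over E12.5 went from 3.30 to 3.54 down to 2.46 to 2.82 for the rises. Those of the falls went from between -3.75 and -3.47 to between -2.98 and -2.67. The largest rise was at chr4:83984035-83985577, an intergenic region 458 kb from Ccdc171, which encodes a coiled-coil protein. It started from 1.73 CPM (interval 1.35 to 2.18), had reached 13.1 CPM (12.4 to 13.9) by E14.5 and stood at 20.1 CPM (19.5 to 20.8) by E16.5, an 11.6-fold difference from first to last. Most of that difference was present by E14.5. Counting intervals of this and the other regions named here take no account of their choice as extremes.

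The second rise lay in an intron of Pde11a, a cyclic nucleotide phosphodiesterase, 51.6 kb from its start (chr2:76285193-76287211), at 2.58, 14.1 and 26.3 CPM. The third was intergenic, 113 kb from Tars, the threonyl-tRNA synthetase (chr15:11513099-11514803), at 1.73, 6.46 and 17.5 CPM. The fourth was 129 kb from Usp24, a ubiquitin-specific protease (chr4:106185207-106187367), at 3.42, 10 and 34.2 CPM. The fifth overlapped an exon of Adamtsl3, which encodes a matrix protein of the ADAMTS-like family, with Saxo2 as the nearest start at 116 kb (chr7:82529698-82532120), at 3.16, 11.2 and 31.2 CPM. All 5, picked as the largest rises, were higher at each later stage, by 9.85-fold to 11.6-fold in all. After thinning, the region near Usp24 was open in 0.28%, 0.96% and 2.56% of nuclei.

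The largest fall was at chr12:56917781-56918739, in an intron of Slc25a21, a mitochondrial carrier gene, with the start of Pax9, a paired-box transcription factor, nearest at 222 kb. It started from 20.4 CPM (interval 18.9 to 21.9), was at 7.26 CPM (6.75 to 7.79) by E14.5 and at 1.52 CPM (1.34 to 1.71) by E16.5, 13.4-fold lower at the end. The peaks there overlapped by 50.1%, so this region was close to the edge of the overlap rule. An intergenic region 876 kb from Igfbp7, an insulin-like growth factor binding protein gene (chr5:78284241-78285538), stood at 19.8, 8.02 and 1.59 CPM. Another, 459 kb from Pdcd6ip, which takes part in membrane scission (chr9:113247765-113249618), stood at 38.5, 12.7 and 3.25 CPM.

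The regions near Klhl14 and Cacna2d1 differed in timing from the first 3 falls. That 59.2 kb from Klhl14 (chr18:21713888-21714738) stood at 17.4, 3.14 and 1.56 CPM, and that 83.6 kb from Cacna2d1, an auxiliary subunit of voltage-gated calcium channels (chr5:15849938-15851055), at 28.8, 5.34 and 2.59 CPM. Both had made the larger part of the fall by E14.5, whereas the first 3 fell more between E14.5 and E16.5, in each case on the log2 scale. All 5, picked as the largest falls, were lower at each later stage, and 11.1-fold to 13.4-fold lower at E16.5 than at E12.5.

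Among the most accessible 10%, the remote regions closest to constant were near Mex3b, an RNA-binding protein gene, near Bnc2, a zinc-finger gene, and near Meox2, a homeobox gene. The first (chr7:82923151-82924535) stood at 18.9, 18.8 and 19.2 CPM. The region in an intron of Bnc2 (chr4:84499772-84503750) stood at 32, 32.4 and 31.7 CPM, and that 175 kb from Meox2 (chr12:36932403-36933944) at 18.1, 17.6 and 17.7 CPM. The 3 were picked for the smallest differences, so ratios within their counting intervals of no difference were favoured by the choice.

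**Figure D3:**
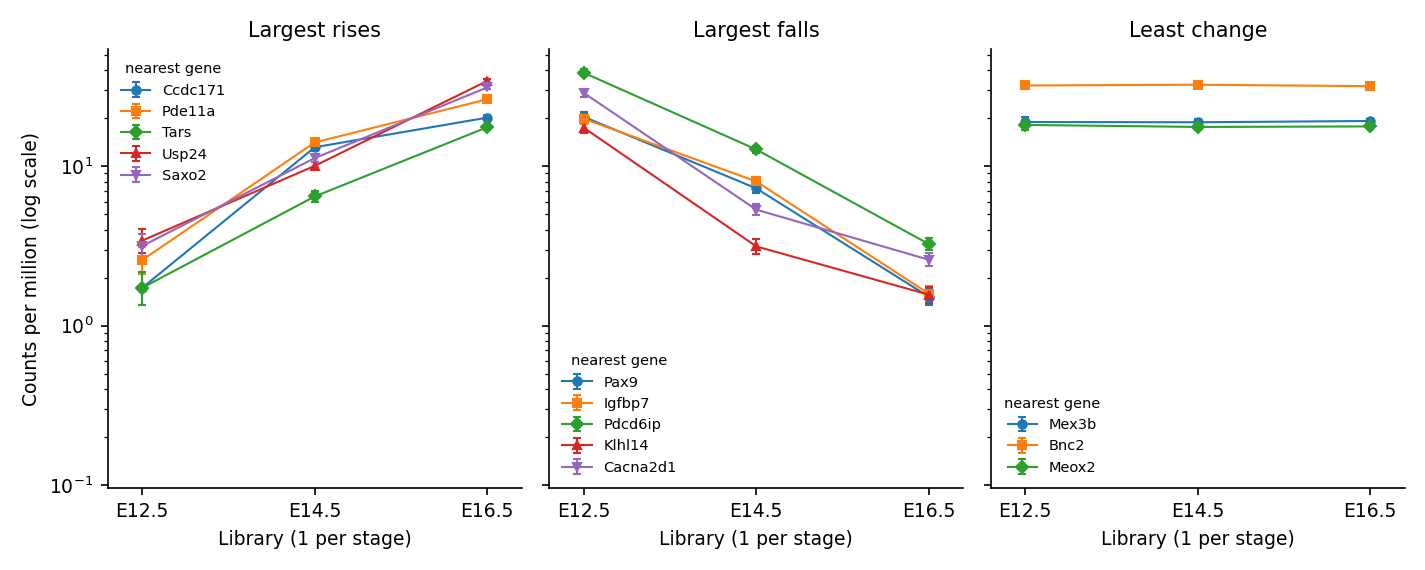
CPM on a log scale in the 3 libraries, in age order, for the 5 largest rises, the 5 largest falls and the 3 least changed remote regions among those of high level, each named by its nearest gene, with bars for the exact Poisson interval of the counts. Rises start at 1.73 to 3.42 CPM and falls end at 1.52 to 3.25 CPM, while the last 3 stay level.

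A single remote region stood far above all others. At chr17:39842771-39849052 it held 3198, 1825 and 1417 CPM in age order, and a cut was found in 76.9%, 77.3% and 90.5% of nuclei. The annotation places there an rRNA gene (CT010467.1) and the long noncoding RNAs Gm26917, Gm42418 and AY036118. This is the assembled copy of the ribosomal RNA gene, which is repeated many times in the genome, so reads of all copies can collect here and the level is uncertain. Without it, the fall in the share of counts in remote regions from E12.5 to E16.5 was 1.34 instead of 1.52 percentage points. The next highest were a region at the start of the gene model Gm7461, 50.9 kb from Zfp958 (chr8:4676727-4680163), at 93.1, 104 and 89 CPM, and a region in an intron of Bach2, which encodes a transcription factor of lymphocytes among other cells (chr4:32301166-32307059), at 94.9, 77.3 and 67.9 CPM.

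The distance rule limits which genes can be nearest. Remote regions had 3866 nearest genes among 20807 autosomal protein-coding genes, and 350 genes with at least 10 remote regions each accounted for 5010 of them (32.9%). Adgrl2, an adhesion receptor gene in a wide gene desert, had the most, 45 remote regions at 51 to 1195 kb. Their log2 ratios for E16.5 over E12.5 ran from -3.11 to 2.74 around a median of 0.02, with 8 at least 2-fold higher and 10 at least 2-fold lower, where 12.9% and 19.4% of all remote regions were so called. The summed level of these 45 regions was 422, 417 and 396 CPM in age order.

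Of the other genes with most remote regions, Robo1, a receptor for the guidance factor Slit, had 34, with 3 at least 2-fold higher and 6 lower. Nfib, a transcription factor of the NFI family, had 33, with 7 higher and 6 lower. Maf, a basic leucine zipper factor, had 29, with 9 higher, 4 lower and a median of 0.34. Rbms3, an RNA-binding protein gene, also had 29, with 11 higher, 7 lower and a median of 0.33. Zfp608, Auts2, Slc4a3, Zfhx3 and Zmiz1 had 30 to 34 each, with medians from -0.16 to 0.03. The genes were taken for their number of regions, and the counts stand beside the 12.9% higher and 19.4% lower of all remote regions.

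**Figure D4:**
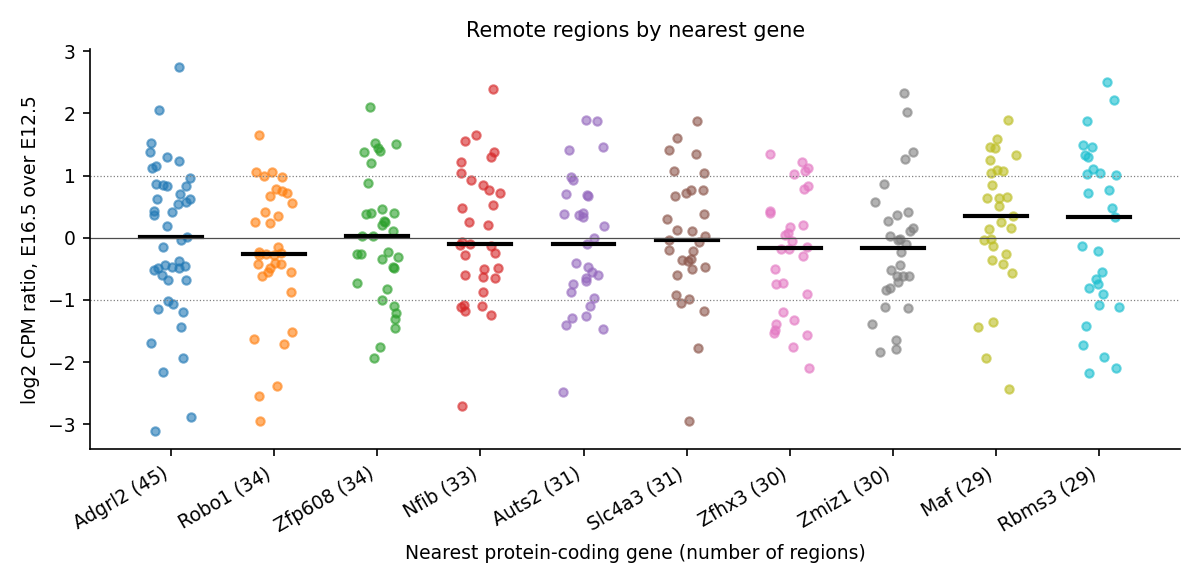
log2 CPM ratio of E16.5 over E12.5 (vertical) for each remote region, grouped by nearest protein-coding gene for the 10 genes with most remote regions (number in brackets), with the median as a black bar and dotted lines at 2-fold. Points scatter on both sides of 0 at every gene, and medians lie between -0.26 and 0.34.

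Among the 350 genes, medians reached from -1.19 to 0.89. Regions near Eya1 and Pou3f3, both encoding transcriptional regulators of development, had medians of -1.19 over 10 and 14 regions, and the summed level near Pou3f3 was 86.4, 69.8 and 46.5 CPM in age order. At the other end stood Pard3, a cell polarity gene (0.89 over 11 regions), Has2, the hyaluronan synthase (0.87 over 10), Bicc1, an RNA-binding protein gene (0.82 over 10), Daam1, a formin gene of Wnt signalling (0.77 over 10), and Thbs1, which encodes the matrix glycoprotein thrombospondin 1 (0.77 over 15). The summed level near Thbs1 was 81.6, 132 and 147 CPM, with 6 of 15 regions at least 2-fold higher and 1 lower. Pou3f3 had 8 of 14 at least 2-fold lower and 0 higher. These genes were picked as the ends of the 350, and 12.9% of all remote regions were higher and 19.4% lower.

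Neighbouring remote regions were only weakly correlated in their course. Over 1969 adjacent pairs less than 5 kb apart, the Pearson correlation of the log2 ratio for E16.5 over E12.5 was 0.10, and 53.7% of the pairs had the same sign, a share that lay between 52.8% and 53.9% in every wider bin of distance. For pairs 20 to 100 kb apart (n = 4904) the correlation was 0.03. The points are regions of the same 3 libraries and share their depth.

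Gene lists drawn for limb mesenchyme and its derivatives, apart from that of pericyte genes, gave remote regions with both directions of change. Single genes whose counts are given within a list were not chosen by a fixed rule, and their counts do not stand for the list. Around 40 limb mesenchyme transcription factor genes, 37 had remote regions, 252 in all, with 39 (15.5%) at least 2-fold higher and 59 (23.4%) at least 2-fold lower at E16.5, where the background was 8.57% and 12.3% of matched regions and 12.9% and 19.4% of all remote regions. Their median log2 ratio was -0.25. Zfhx3 had the most of these genes, 30, and Sall1, a zinc-finger gene of limb patterning, had 7 of 15 lower and 3 higher. An intergenic region 468 kb from Nr2f2, a nuclear receptor gene (chr7:70834294-70835605), stood at 34.8, 12.5 and 4.45 CPM, and a region 106 kb from Tbx3, a T-box factor of limb patterning (chr5:119563262-119564850), at 4.47, 11.2 and 23.6 CPM.

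Around 24 cartilage and bone regulators, 17 had remote regions, 154 in all, with a median of -0.33, 19 (12.3%) at least 2-fold higher and 33 (21.4%) lower, near the 12.9% and 19.4% of all remote regions. Sox9, the regulator of cartilage fate, had 27 of them, with log2 ratios from -3.17 to 2.26, 3 higher and 6 lower. The largest of these falls was 344 kb from Sox9 (chr11:112437016-112437913), at 13, 5.29 and 1.44 CPM, 9.03-fold lower at E16.5. Sox5, a partner of Sox9 in cartilage, had 8 of 16 lower and 1 higher. Trps1, a zinc-finger factor of growth plate cartilage, had 4 of 21 higher and 3 lower, and the largest rise there (chr15:51263977-51265311, 374 kb away) stood at 1.63, 7.77 and 9.22 CPM, most of it present by E14.5.

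Regions near fibroblast and connective tissue genes had medians near 0. Around 26 fibroblast genes and factors, 19 had remote regions, 140 in all, with 24 (17.1%) higher and 21 (15%) lower, and around 17 tendon and muscle connective tissue genes, 8 had 78, with 10 (12.8%) higher and 14 (17.9%) lower, beside 12.9% and 19.4% of all remote regions. At Nfib, a fall and a rise both lay within the gene body: the region at chr4:82634026-82634966 stood at 14.4, 5.18 and 2.21 CPM and that at chr4:82383557-82385182 at 1.92, 6.41 and 10 CPM. Klf4, a zinc-finger factor, had 4 of 10 higher and 0 lower, and Tcf4, a basic helix-loop-helix factor, 4 of 17 higher and 0 lower. Tcf4 is a different gene from Tcf7l2, and its regions are part of the counts of the tendon and muscle connective tissue list. By contrast, Ebf1 in the fibroblast list had 3 of 14 higher and 4 lower, and Nfia 2 of 10 higher and 2 lower. Tnc, which encodes the matrix protein tenascin-C, had 6 of 16 lower and 1 higher. Near Tcf7l2, a marker of muscle connective tissue, the largest rise stood at 2.88, 6.02 and 10.3 CPM, and the largest fall near Tgfb2, a growth factor gene required for tendon, at 13.8, 3.09 and 2.69 CPM. Only 2 of 12 pericyte genes had remote regions, 4 in all, of which 1, near Foxf2, was at least 2-fold lower and 0 were at least 2-fold higher.

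Around 41 genes of secreted signals and their receptors, 40 had remote regions, 346 in all, with a median of -0.26, 45 (13%) higher and 74 (21.4%) lower, also near the shares of all remote regions. Epha4, an ephrin receptor of limb and nerve patterning, had 7 of 17 lower and 2 higher, and Gli3, the Hedgehog pathway factor, 5 of 17 lower and 2 higher. A region 680 kb from Robo1 (chr16:73343455-73344780) stood at 17.5, 7.17 and 2.27 CPM. The largest rise of the list at or above the median level lay 132 kb from Fgf18, a growth factor of cartilage and bone (chr11:33012376-33014856), at 6.67, 20.4 and 49.2 CPM, and after thinning it was open in 0.619%, 1.95% and 3.68% of nuclei. Around 22 genes of cell types that the sort should lack, 8 had remote regions, 57 in all, with 7 (12.3%) higher and 10 (17.5%) lower. Among them, a region 407 kb from Cdh5, an endothelial cadherin gene, stood at 28.5, 12 and 4.59 CPM, and a region 491 kb from Ptprc, the pan-leukocyte phosphatase gene, at 2.51, 9.81 and 9.89 CPM. The median over the 15 regions near Cdh5 was 0.33, and that over the 24 near Ptprc was -0.48.

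Remote regions with the CTCF motif spread less in the ratio of E16.5 over E12.5 than those without it, and from 1 kb outward the motif was rarer the farther a region lay from a gene start. It was found in 9.43% of matched regions at 1 to 50 kb and in 3.66% of remote regions (557, interval 3.37 to 3.97), from 5.3% at 50 to 100 kb to 1.89% beyond 250 kb, against 5.19% of all matched regions and 0.646% of matched promoters. Of the 557, 1.44% were at least 2-fold higher and 5.57% at least 2-fold lower at E16.5, compared with 13.4% and 20% of remote regions without the motif. The standard deviation of the log2 ratio was 0.50 with the motif and 1.03 without. Their medians were not steadier over the single steps: the median log2 ratio was -0.47 from E12.5 to E14.5 and 0.25 from there to E16.5, against -0.06 and -0.13 without the motif, and another scaling of a library moves both groups alike. Regions with the motif were also narrower (median 465 bp at E14.5 against 756 bp) and lower (3.91 against 6.18 CPM). At 1 to 50 kb the standard deviations were 0.44 with and 0.88 without the motif, against 0.50 and 1.03 in remote regions. The most accessible remote regions with the motif, near Oxgr1 and Bcas1, stood at 48.8, 20.5 and 25.6 CPM and at 19.5, 17.3 and 14.9 CPM. Both were below 2-fold in CPM from E12.5 to E16.5, but the first was 2.39-fold lower at E14.5 than at E12.5. Per kb of called width, their log2 ratios for E16.5 over E12.5 were -1.51 and -0.50, so the first passed 2-fold.

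The half-site of the NFI factors (CTTGGCA) was, of the 16 motifs, the one whose share differed by most percentage points between rises and falls. NFI proteins, among them Nfia, Nfib and Nfix, bind the palindrome of which this is one arm and are known regulators of late fetal development. It was found in 9.08% of remote regions and 7.2% of all matched regions, in 14% of remote regions at least 2-fold higher at E16.5 (interval 12.5 to 15.6) and in 6.15% of those at least 2-fold lower (5.32 to 7.08). Of remote regions with the half-site, 20% were higher and 13.2% lower, the reverse of those without it, at 12.2% and 20.1%. Their median log2 ratio was 0.14, against -0.20, and the difference was present at the first step, with 0.25 against -0.11 for E14.5 over E12.5. For E16.5 over E14.5 the medians were close, -0.12 with the half-site and -0.11 without. The positive median of 0.14 for E16.5 over E12.5 turned to -0.01 per kb of called width and to -0.13 with 80% overlap. Regions at 1 to 50 kb gave like shares, 13.8% of the higher and 5.94% of the lower, so it was not seen in remote regions alone. The region in an intron of Cttnbp2 (chr6:18440471-18441567), at 1.41, 10 and 12.5 CPM, was the largest rise with it at or above the median level, and the region near Cacna2d1, among the largest falls, also held it.

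The other motifs differed less between rises and falls. AP-1 (TGACTCA), bound by Fos and Jun factors, was in 9.7% of higher (interval 8.43 to 11.1) and 7.07% of lower remote regions (6.17 to 8.05). It was in 6.11% of all matched regions. TEAD (CATTCCA), read by effectors of Hippo signalling, was in 8.08% of higher (6.91 to 9.37) and 9.91% of lower regions (8.85 to 11), and in 6.36% of all matched regions. For SOX (CATTGTT), RUNX (TGTGGTT), homeodomain (TAATTA), EBF (CCCNNGGGA), FOX (TGTTTAC), LEF/TCF (CTTTGAT), GLI (GGGTGGTC), MEIS (TGACAG), E-box (CATCTG) and posterior HOX (CAATAAA) motifs, the shares of higher and lower regions lay closer together than for TEAD. The intervals are over regions of the same 3 libraries, so whether they overlap is no test of a difference between stages. The homeodomain motif was more frequent in remote regions than in all matched regions, at 9.37% against 5.93%, as were posterior HOX (7.75% against 5.28%), SOX (4.95% against 3.63%) and the E-box (33.3% against 25.5%). Promoter-type motifs were rarer, the GC box (GGGCGG) at 7.89% against 23.3% and ETS (CCGGAAG) at 1.43% against 4.5%. Base composition differs between these sets and bears on such short matches. Both strands of 300 bases at the centre were searched, and motifs may overlap one another.

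**Figure D5:**
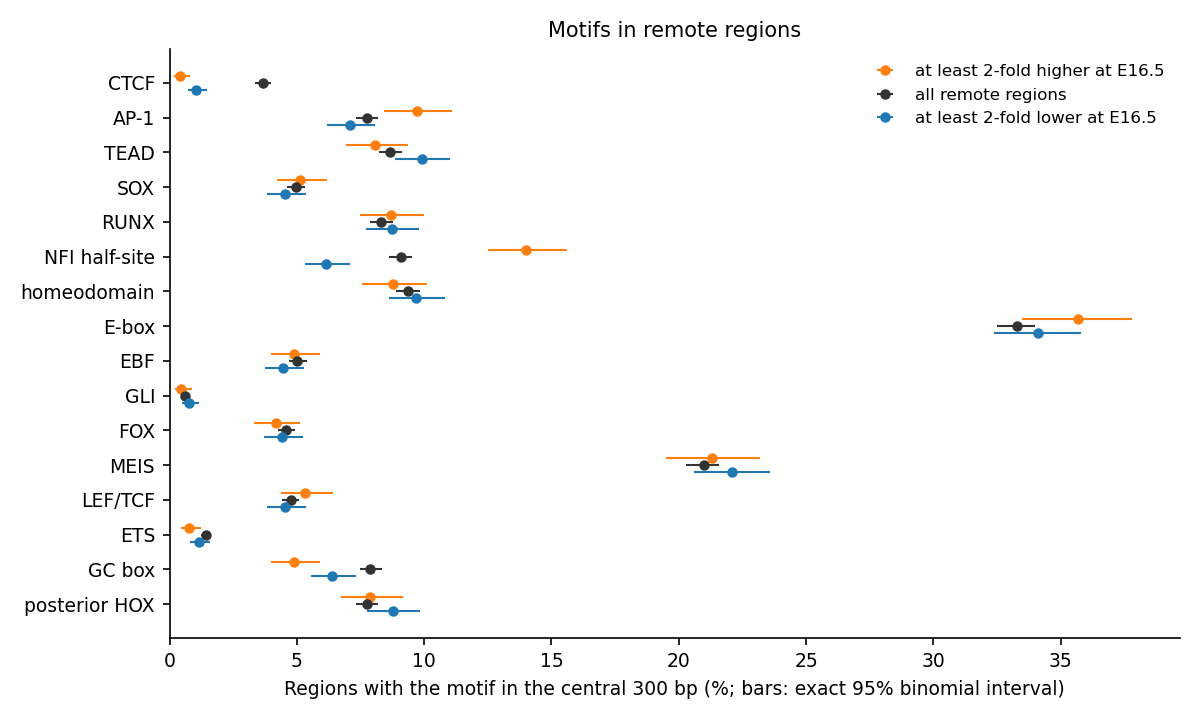
Percent of remote regions with each of 16 motifs in the central 300 bp, with exact 95% binomial intervals, for all remote regions (black, n = 15205) and those at least 2-fold higher (orange, n = 1969) or lower (blue, n = 2957) at E16.5 than at E12.5. The NFI half-site stands at 14% of higher and 6.15% of lower regions, and the CTCF motif at 0.406% and 1.05%, both below its 3.66% in all.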

How the data were processed

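Accessibility was measured in 3 libraries, 1 per stage. The deposited matrices hold raw counts of transposase cuts for each peak and nucleus, left unnormalised by the authors, beside peak lists and barcodes. The submitters' processing notes name Cell Ranger ATAC 1.1.0 and mm10, while the file headers give software versions 1.0.1, 1.0.1 and 1.2.0 in age order, so calling may differ between libraries. The authors called peaks library by library, and the lists hold no scores.

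Peaks of the 3 libraries that overlapped by at least 1 bp were merged into regions with numpy 2.4.6 and pandas 2.3.3 in Python 3.11.15. Counts were summed over all deposited nuclei in each library's own peak, and the log2 ratio of CPM was called past a fold of 2. No test across samples was possible with 1 library per stage. Exact Poisson and binomial (Clopper-Pearson) intervals were computed with scipy 1.17.1 on fragment equivalents (cut counts over 2, rounded up) and cover counting error only. Binomial intervals of motif shares were instead computed on numbers of regions. The ratio calculation was tested on simulated data. No doublet caller was run, and the 5% of nuclei with the highest counts were left out as an alternative. Shares of open nuclei were computed after thinning each nucleus to 1000 fragment equivalents.

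The rule for named regions took the 5 largest rises and falls among regions with a mean level at or above the median, the 3 highest, the 3 least changed among the most accessible 10%, and, with the same limit on level, the largest rise and fall in each of 7 gene lists (182 genes). The members, lists and motifs were chosen with earlier results of these data known. The overlap rule used the peak positions, so presence of a peak in every library and width ratios within 2-fold are not results. On the X chromosome 277 regions met the other criteria and were not used.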

Additional observations from a re-analysis of the deposited data

How the results depend on the processing

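Each stage had 1 library and so no spread between replicates, leaving out a replicate was impossible and depth limits the smallest regions, which rest on few fragments at E12.5. No paired analysis was possible because there is a single library in each group. Of the settings that alter the scaling, the counting or the membership, 166 of 217 comparisons of the main medians, shares and counts stayed within tolerance, 46 moved beyond it with the same sign and 5 changed sign. The latter 2 kinds follow with 2 sign changes among the other values (of which 72 moved and 180 did not), and causes were not tested unless the construction of a setting shows them.

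Membership fell by construction from 15205 to 9341 regions beyond 100 kb, 2622 with overlap of 80% or more and 5918 with start sites of all gene types, with 2298, 1612 and 2123 nearest genes. The median for E14.5 over E12.5 turned to 0.092 with CPM over all peaks, 0.014 with scaling on regions over 10 kb from a start site, 0.29 per kb of width and 0.20 with 80% overlap. That for E16.5 over E14.5 turned to 0.026 with the median of ratios and was -0.36 over all peaks, -0.53 per kb and -0.44 with 80% overlap. For the region near Zfp958, E16.5 over E12.5 turned to 0.029 with the median of ratios and 0.070 with scaling on regions over 10 kb away.

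At a fold of 1.5, 22.1% were higher and 23.5% lower (E14.5 over E12.5), 13.3% and 24.7% (E16.5 over E14.5) and 22.7% and 32.4% (E16.5 over E12.5). For E14.5 over E12.5, 4.93% were lower over all peaks, 0.559% per kb and 0.915% with 80% overlap. Leaving out regions under 100 fragment equivalents or open in under 1% of nuclei in any library gave 7.16% and 7.56% higher (914 higher and 1303 lower, 983 and 1269), which turned the balance, since these filters remove regions low at E12.5. For E16.5 over E14.5, 1.18% were higher and 18.9% lower over all peaks, and 5.27% higher with the median of ratios, 0.0855% per kb and 0.191% with 80% overlap. For E16.5 over E12.5, 4.9% were higher and 13% lower per kb, and 3.81% and 11.7% with 80% overlap, which by construction keeps regions of like width. With 80% overlap 100 regions were higher and 306 lower.

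The difference in the share of counts from E12.5 to E16.5 stayed negative: -1.86 points over all peaks, -1.33 over regions beyond 10 kb, -1.26 binarised, -1.49 by fragment equivalents, -1.73 without the deepest nuclei, -1.84 beyond 25 kb, -1.11 beyond 100 kb, -0.62 with 80% overlap, -0.57 with all gene types and -1.34 without the ribosomal RNA region. The CTCF motif was in 4.85% beyond 25 kb, 2.63% beyond 100 kb, 2.63% with 80% overlap and 3.26% of 200 bp windows. The NFI half-site was in 12% of higher regions with 80% overlap, and in 9.8% of higher and 4.4% of lower regions in 200 bp windows. The comprehensive annotation (12109 regions), the thinning on shared regions and the setting without the ribosomal RNA region were added after seeing the data.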
